A study of Homo sapiens with 9 samples.

Results

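The ligands, antagonists and 1 target gene of the transforming growth factor beta (TGF-beta) family described here are 10 of the 64253 genes in the count files, measured in the human fibroblast line IMR90, which comes from fetal lung. They were chosen by name, with earlier results of these data known. They are the ligands TGFB1, TGFB2, TGFB3, INHBA, GDF15, BMP2 and BMP4, the antagonists FST and GREM1, and the BMP target ID1. RNA was sequenced from 3 libraries each of a control, of cells with a short hairpin against RRM2 (shRRM2, labelled senescence) and of cells with that hairpin and another against p16 (shRRM2/shp16, labelled senescence bypass). All cells were grown at 2% oxygen, used at population doubling 30 and infected with pLKO.1 lentiviruses in 2 rounds 24 hours apart. They were then selected with puromycin at 3 ug/mL for 7 days. The control carried an empty vector by its label and a GFP vector by the treatment protocol, so it is called the vector control here. No group carried shp16 without shRRM2, and 1 hairpin stood for each target. The labels do not say whether the 3 libraries of a group came from separate cultures, so the p-values measure only the spread between these libraries, which may be technical. RRM2 encodes a subunit of the enzyme that makes deoxynucleotides, and the study's design text describes its loss as senescence through nucleotide depletion.

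Ligands of this family bind pairs of receptor kinases that phosphorylate SMAD proteins. TGF-betas and activins (INHBA encodes the activin A chain) act mainly through SMAD2 and SMAD3, and bone morphogenetic proteins (BMPs) through SMAD1, SMAD5 and SMAD9. Follistatin (FST) binds activins, gremlin (GREM1) and noggin bind BMPs, and the ID genes are transcribed directly in response to BMP signals. Fibroblasts both secrete and answer TGF-beta, which induces collagens and contractile proteins, and several of these ligands belong to the secretory output described for senescent cells.

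Promoter windows were read from RefSeq (GRCh38.p14, 250 bases before to 50 after the start) for 9 of the 10 genes, without BMP2. The 4 windows below belong to ID1, FST, GDF15 and TGFB2. ID1 and FST were lower in shRRM2 than in control and higher in shRRM2/shp16 than in shRRM2. GDF15 and TGFB2 were higher in shRRM2 than in control. Capitals mark matches, on either strand, to 1 of 6 motifs searched: the SMAD element GGCGCC, the AP-1 motif TGANTCA, an NF-kB motif, the ATF4 composite motif TGATGNAA, the core promoter box TATAAA and the E-box CACGTG. ID1 is at chr20:31605039-31605338, GDF15 at chr19:18385908-18386207, TGFB2 at chr1:218345086-218345385 and FST at chr5:53480379-53480678, all on the plus strand.
ID1: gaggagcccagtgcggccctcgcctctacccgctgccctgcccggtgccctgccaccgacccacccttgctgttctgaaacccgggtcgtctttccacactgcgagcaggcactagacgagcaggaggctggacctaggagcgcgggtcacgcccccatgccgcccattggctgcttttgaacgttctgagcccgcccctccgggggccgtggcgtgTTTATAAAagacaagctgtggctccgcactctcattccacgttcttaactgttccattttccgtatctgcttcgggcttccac
GDF15: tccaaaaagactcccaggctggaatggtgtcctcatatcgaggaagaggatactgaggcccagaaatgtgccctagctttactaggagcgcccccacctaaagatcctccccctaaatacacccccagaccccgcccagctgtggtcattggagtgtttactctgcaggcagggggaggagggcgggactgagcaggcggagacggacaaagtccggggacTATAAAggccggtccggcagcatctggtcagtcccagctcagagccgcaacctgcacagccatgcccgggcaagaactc
TGFB2: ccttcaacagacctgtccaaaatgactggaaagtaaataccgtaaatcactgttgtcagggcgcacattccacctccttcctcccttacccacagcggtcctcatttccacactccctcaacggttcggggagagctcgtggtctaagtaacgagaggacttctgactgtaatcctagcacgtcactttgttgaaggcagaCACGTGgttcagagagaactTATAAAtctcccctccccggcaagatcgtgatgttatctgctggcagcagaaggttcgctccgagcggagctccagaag
FST: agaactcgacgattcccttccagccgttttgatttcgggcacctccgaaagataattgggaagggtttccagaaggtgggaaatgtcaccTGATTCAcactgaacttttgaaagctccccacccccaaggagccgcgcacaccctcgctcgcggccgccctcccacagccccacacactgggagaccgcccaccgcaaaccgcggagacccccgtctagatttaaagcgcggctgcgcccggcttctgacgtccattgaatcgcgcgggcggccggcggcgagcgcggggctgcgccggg
TATAAA began at -29 from the start in GDF15 and in TGFB2, and at -31 in ID1, where an overlapping match on the other strand began at -33. TGFB2 also held CACGTG at -49, and FST held TGATTCA, a match to the AP-1 motif, at -160. Among all 35116 promoter windows of this length, TATAAA was found in 11.5%, CACGTG in 7.26%, the AP-1 motif in 7.71%, GGCGCC in 19.2%, TGATGNAA in 3.62% and the NF-kB motif in 1.91%. GGCGCC was found in windows of BMP4 and GREM1 and in none of the 4 printed. These matches describe letters only.

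The libraries held between 15770895 and 24873291 reads counted on genes, and 16561 genes passed the filter on low counts. RRM2 stood at 485 ± 5.23 CPM (read counts on a per-library scale set by TMM; SD, n = 3) in control, 62.1 ± 1.86 in shRRM2 and 177 ± 3.00 in shRRM2/shp16, where it was 1.51 ± 0.035 log2 units above shRRM2 (adjusted p = 7.9e-34). CDKN2A, whose reads include transcripts of both p16 and ARF, was at 6.02 ± 0.113, 6.50 ± 0.464 and 4.28 ± 0.321 CPM. It was not called in shRRM2 against control (adjusted p = 0.431), and the step from shRRM2 to shRRM2/shp16 was -0.60 ± 0.127 log2 units (adjusted p = 7.0e-05). The shRRM2/shp16 and shRRM2 groups therefore differed in RRM2 level as well as in the p16 hairpin. The part of each in the differences below was not tested. Steps are differences between separate groups, not a course in time. All 11 fibroblast markers were among the genes tested, summing to 34500 to 35700 CPM in control, 31600 to 32600 in shRRM2 and 29100 to 29900 in shRRM2/shp16. The largest part of the sum was COL1A1, and single markers moved both ways. In shRRM2 against control 2 rose, 7 fell and 2 were not called (29% higher and 31.8% lower of all genes tested). In shRRM2/shp16 against control 3 rose, 5 fell and 3 were not called (30% higher and 32.4% lower of all genes tested). The 7 epithelial markers summed to at most 25.4 CPM and the 6 leukocyte markers to at most 3.62, with KRT5, SFTPC and CD3E at 0. The share of uniquely aligned reads that the counting placed on no feature was 17.65 to 18.92% in control, 27.7 to 28.83% in shRRM2 and 23.48 to 24.35% in shRRM2/shp16. Which features were counted is not given in the sources used here, so these reads need not lie outside genes. The share moved with the groups, and its part in the results was not tested. In bulk RNA, fewer cells that make a transcript and less of it per cell cannot be told apart.

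All 10 genes passed the filter. Against control, shRRM2 libraries had more GDF15, BMP2, TGFB2, INHBA and GREM1 RNA and less ID1, BMP4, FST, TGFB1 and TGFB3. In shRRM2/shp16 against shRRM2, 8 rose (BMP4, BMP2, FST, ID1, TGFB3, TGFB2, INHBA and TGFB1) and 2 fell (GREM1 and GDF15). Against control, shRRM2/shp16 libraries had 7 higher, 2 lower (GREM1 and TGFB1) and ID1 not called. A gene was called at an adjusted p under 0.05 in edgeR's quasi-likelihood test over all genes tested. The same rule called 60.9% of all genes tested in shRRM2 against control (29% higher, 31.8% lower), 61.1% in shRRM2/shp16 against shRRM2 (31.9% higher, 29.1% lower) and 62.4% in shRRM2/shp16 against control (30% higher, 32.4% lower). The calls of the 10 genes and of the lists below are read against these shares. The genes and lists were chosen with earlier results known, so a count above a share is no independent test. The values of the groups did not overlap for 9, 10 and 9 of the 10 genes in these comparisons, against 63.6%, 64.7% and 66.2% of all genes tested. The median size of the log2 fold change over the 10 genes was 0.66, 0.77 and 0.82, and over all genes tested 0.32, 0.32 and 0.34. The 3 comparisons share libraries pairwise, so their calls are not independent.

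**Figure D1:**
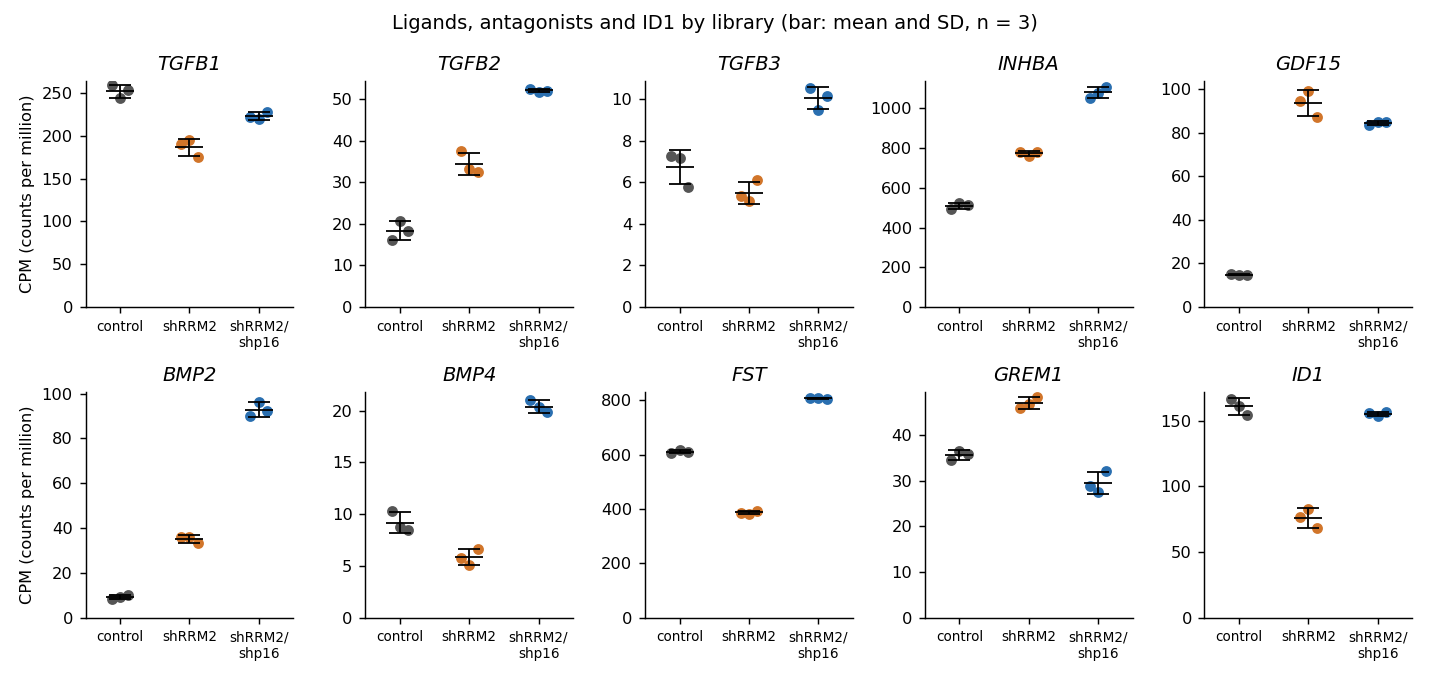
CPM of each of the 10 genes (vertical axes, each starting at 0) in the vector control, shRRM2 and shRRM2/shp16 groups; each point is 1 library and the bars give the mean and SD of 3 libraries. BMP2 climbed in both steps, from a mean of 9.15 to 35.1 and then 92.9 CPM, while FST and ID1 were lowest in shRRM2.

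The 3 TGF-beta ligands did not move as one. TGFB2 rose in each step and ended 2.86-fold above control, TGFB1 fell in shRRM2 and came part of the way back, and TGFB3 was highest in shRRM2/shp16. TGFB1 (ENSG00000105329, chr19:41301587-41353911, minus strand, GRCh38) encodes the most widely expressed isoform. Its level was 259, 244 and 254 CPM in the control libraries, 190, 195 and 176 in shRRM2 and 222, 220 and 228 in shRRM2/shp16. No 2 groups overlapped, and control was highest. The log2 fold change was -0.43 ± 0.034 (SE) in shRRM2 against control (adjusted p = 6.0e-15), 0.26 ± 0.034 in shRRM2/shp16 against shRRM2 (adjusted p = 1.2e-08) and -0.18 ± 0.033 in shRRM2/shp16 against control (adjusted p = 9.9e-06). The last call was lost on the deposited RPKM values (adjusted p = 0.0857 on the log2 values as deposited). Genes on the opposite strand overlap TGFB1, among them HNRNPUL1, and the strand setting of the counting is not given in the sources used here, so reads of both strands may be mixed in its count.

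TGFB2 (ENSG00000092969, chr1:218346235-218444619, plus strand) encodes an isoform that needs the co-receptor betaglycan for efficient receptor binding. It stood at 16.1, 20.7 and 18.3 CPM in control, 37.4, 33.2 and 32.5 in shRRM2 and 52.5, 51.8 and 52.0 in shRRM2/shp16. The groups followed each other upward without overlap. The rise was 0.91 ± 0.070 log2 units in shRRM2 against control (adjusted p = 3.5e-15) and a further 0.60 ± 0.059 in shRRM2/shp16 against shRRM2 (adjusted p = 4.8e-12). TGFB3 (ENSG00000119699, chr14:75958099-75982991, minus strand), the isoform best known from palate and lung development, was the least abundant, with 7.25, 7.16 and 5.78 CPM in control, 5.33, 5.08 and 6.08 in shRRM2 and 10.5, 9.46 and 10.2 in shRRM2/shp16. Control and shRRM2 overlapped, and all shRRM2/shp16 libraries lay above both. The difference of -0.30 ± 0.122 log2 units between shRRM2 and control had an adjusted p of 0.0306 and was lost with DESeq2 (0.103) and without 1 library: control a (0.153), control b (0.0943), shRRM2 a (0.0827) or shRRM2 b (0.133). The rise of 0.87 ± 0.114 in shRRM2/shp16 against shRRM2 had an adjusted p of 1.0e-08, and that of 0.56 ± 0.106 against control one of 1.0e-05. IFT43 overlaps TGFB3 on the opposite strand, with the same limit as for TGFB1.

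**Figure D2:**
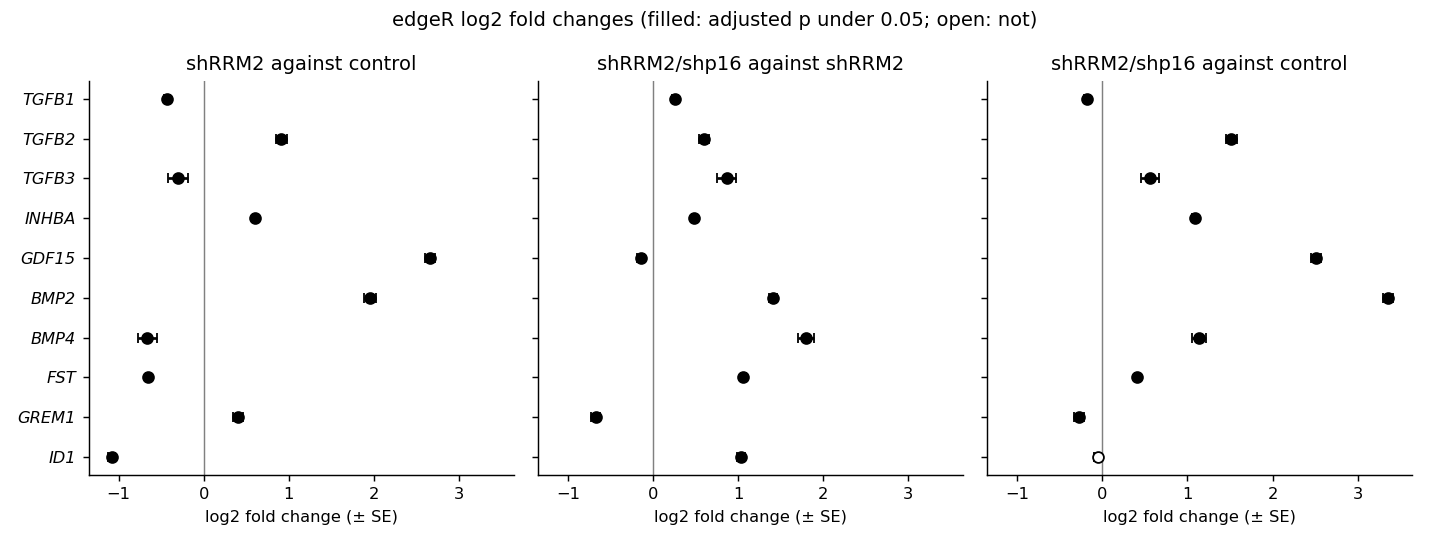
Log2 fold changes (horizontal axis) with their SE for the 10 genes in the 3 comparisons; filled points had an adjusted p under 0.05 in edgeR. ID1 in shRRM2/shp16 against control is the open point, and the widest bars belong to TGFB3 and BMP4.

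Activin and its inhibitor moved in opposite directions in shRRM2 and rose together in shRRM2/shp16. INHBA (ENSG00000122641, chr7:41667168-41705834, minus strand) encodes the beta A chain, whose dimer is activin A. Its level was 493, 523 and 513 CPM in control, 779, 759 and 779 in shRRM2 and 1053, 1078 and 1106 in shRRM2/shp16. The groups were stepwise higher and did not overlap. The log2 fold changes were 0.60 ± 0.027 in shRRM2 against control (adjusted p = 4.2e-23), 0.48 ± 0.026 in shRRM2/shp16 against shRRM2 (adjusted p = 3.2e-20) and 1.08 ± 0.027 against control (adjusted p = 4.7e-33). An antisense transcript, INHBA-AS1, had 95 counts over all libraries.

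FST (ENSG00000134363, chr5:53480409-53487134, plus strand), whose promoter is printed above, encodes follistatin, which binds activins nearly irreversibly. It had 606, 617 and 610 CPM in control, 386, 382 and 395 in shRRM2 and 808, 811 and 807 in shRRM2/shp16. shRRM2 was lowest and shRRM2/shp16 highest, with no overlap between any groups. FST fell by 0.66 ± 0.026 on the log2 scale in shRRM2 against control (adjusted p = 4.3e-25) and rose by 1.06 ± 0.026 from there in shRRM2/shp16 (adjusted p = 3.6e-33), ending 0.40 ± 0.025 above control (adjusted p = 2.2e-18).

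A log2 ratio of antagonist to ligand read counts was formed within each library, which needs no scaling between libraries. Its level depends on gene lengths, so only its change between groups is read. For FST to INHBA it was 0.26 ± 0.031 (SD, n = 3) in control, -0.995 ± 0.014 in shRRM2 and -0.42 ± 0.037 in shRRM2/shp16. All 3 groups were separate, with control highest and shRRM2 lowest. The differences were -1.26 between shRRM2 and control, 0.58 in shRRM2/shp16 against shRRM2 and -0.68 in shRRM2/shp16 against control. For each of the 9 ratio comparisons, here and below, the exact two-sided permutation p was 0.1, the smallest that 3 against 3 libraries can give, and 0.1 after Benjamini-Hochberg adjustment.

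**Figure D3:**
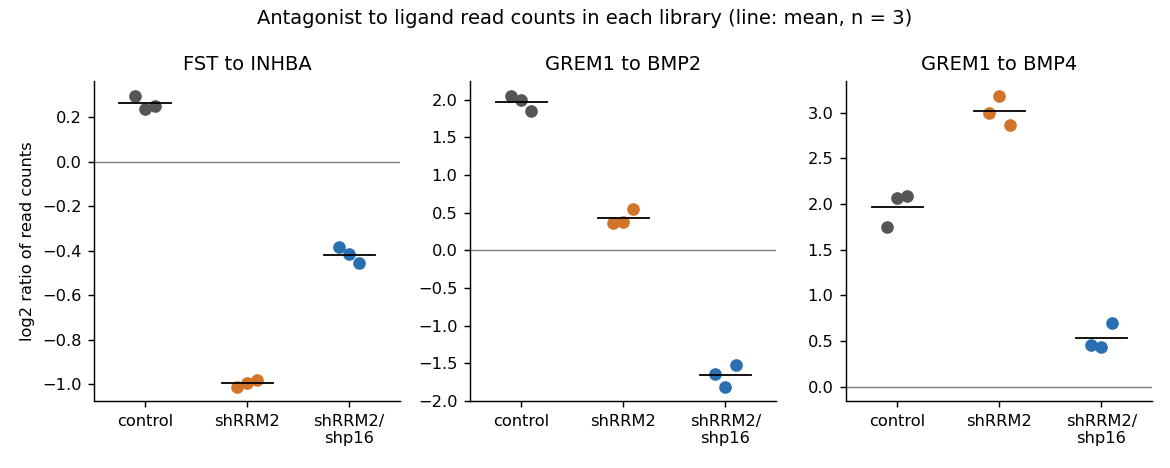
Log2 ratio of read counts (vertical axis) of FST to INHBA, GREM1 to BMP2 and GREM1 to BMP4 in each library; points are libraries and lines the mean of 3. No 2 groups overlap in any panel: FST to INHBA was lowest in shRRM2, GREM1 to BMP2 fell in both steps, and GREM1 to BMP4 was highest in shRRM2.

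GDF15 (ENSG00000130513, chr19:18374731-18389176, plus strand) encodes a distant family member that is induced by many forms of cell stress and acts through the receptor GFRAL in the brainstem. It was 6.3-fold higher in shRRM2 than in control and was near that level in shRRM2/shp16. The libraries had 15.1, 14.7 and 14.7 CPM in control, 94.4, 99.0 and 87.2 in shRRM2 and 83.7, 84.9 and 84.8 in shRRM2/shp16. Both hairpin groups lay far above control, and the shRRM2 group spread more widely than shRRM2/shp16. The log2 fold change was 2.66 ± 0.055 in shRRM2 against control (adjusted p = 2.2e-35) and 2.51 ± 0.055 in shRRM2/shp16 against control (adjusted p = 6.9e-35). The difference of -0.15 ± 0.042 between shRRM2/shp16 and shRRM2 had an adjusted p of 0.00262. That small difference was lost without the library shRRM2 b (-0.10, adjusted p = 0.0537) and changed sign on all 9 deposited RPKM columns (0.05 at a pseudocount of 0.1, adjusted p = 0.785). The column for shRRM2 c does not match its count file, and without it the sign and the call were kept. GFRAL was listed among the receptors and did not pass the filter on low counts.

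BMP2 and BMP4, close relatives that use the same receptors, went opposite ways in shRRM2 and rose together in shRRM2/shp16. BMP2 (ENSG00000125845, chr20:6767664-6780280, plus strand) had 8.34, 9.17 and 9.95 CPM in control, 35.9, 36.1 and 33.1 in shRRM2 and 90.1, 96.4 and 92.1 in shRRM2/shp16. The steps were 3.86-fold and 2.65-fold, with no overlap, and the end level was 10.2-fold above control. As log2 fold changes these were 1.95 ± 0.072 (adjusted p = 3.5e-26), 1.41 ± 0.049 (adjusted p = 2.8e-27) and 3.36 ± 0.061 (adjusted p = 5.9e-38). BMP4 (ENSG00000125378, chr14:53949736-53958761, minus strand) had 10.3, 8.78 and 8.46 CPM in control, 5.78, 5.13 and 6.66 in shRRM2 and 21.0, 20.3 and 19.8 in shRRM2/shp16. shRRM2 was lowest and shRRM2/shp16 highest, again without overlap. BMP4 fell by 0.66 ± 0.112 in shRRM2 against control (adjusted p = 2.2e-06), rose by 1.80 ± 0.098 in shRRM2/shp16 against shRRM2 (adjusted p = 2.9e-20) and was 1.14 ± 0.086 above control there (adjusted p = 1.8e-15). The first of these was not called on all 9 deposited RPKM columns (adjusted p = 0.239), of which that for shRRM2 c does not match its count file.

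GREM1 (ENSG00000166923, chr15:32717974-32745107, plus strand) encodes gremlin, which binds BMP2 and BMP4 outside the cell. It ran against the 2 ligands in shRRM2/shp16 against shRRM2. The libraries had 34.6, 36.6 and 35.9 CPM in control, 46.0, 46.7 and 48.4 in shRRM2 and 28.95, 27.5 and 32.1 in shRRM2/shp16. shRRM2 was highest and shRRM2/shp16 lowest, with no overlap. GREM1 rose by 0.40 ± 0.054 in shRRM2 against control (adjusted p = 2.1e-08), fell by 0.68 ± 0.056 in shRRM2/shp16 against shRRM2 (adjusted p = 3.7e-14) and ended 0.27 ± 0.057 below control (log2 fold change -0.27, adjusted p = 6.4e-05), a call lost on the deposited RPKM values (adjusted p = 0.19 on the log2 values as deposited). A second identifier with the same symbol, ENSG00000276886, held 2293 counts against 6159 and is not on the primary assembly of the annotation used here, so how reads were divided between the copies is uncertain. That identifier had 0.04 ± 0.091 log2 units in shRRM2 against control (adjusted p = 0.705) and -0.56 ± 0.098 in shRRM2/shp16 against shRRM2 (adjusted p = 3.3e-06). With both summed, the values were 0.30 ± 0.048 (adjusted p = 4.7e-07) and -0.65 ± 0.049 (adjusted p = 2.5e-15).

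The log2 ratio of GREM1 to BMP2 counts was 1.97 ± 0.104 (SD, n = 3) in control, 0.43 ± 0.107 in shRRM2 and -1.66 ± 0.146 in shRRM2/shp16. It dropped in both steps, by 1.54 and 2.08, with no overlap between groups. The ratio of GREM1 to BMP4 was 1.96 ± 0.189, 3.01 ± 0.162 and 0.53 ± 0.144, highest in shRRM2. It differed by 1.05 between shRRM2 and control and by -2.48 between shRRM2/shp16 and shRRM2.

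Of the 25 other ligands of the family, 9 passed the filter. In shRRM2 against control 3 rose, 3 fell and 3 were not called (median 0.30, all genes tested 0.00). In shRRM2/shp16 against shRRM2 4 rose and 5 fell (median -1.56, all genes 0.01). Several of the 9 had low counts, and the gene at this median had 7 to 32 per library, so the median is not read as a course of the ligands. BMP5, described at the end, is counted in both comparisons although its counts in shRRM2 were few. BMP6, a BMP that acts in bone and iron control, fell from 6.03 to 4.36 CPM in shRRM2 (-0.46 ± 0.127, adjusted p = 0.00192) and stood at 15.99 in shRRM2/shp16 (1.88 ± 0.106, adjusted p = 1.1e-19). BMP7, a kidney and bone BMP, was at 0.542, 0.655 and 4.12 CPM, and its rise in shRRM2/shp16 against shRRM2 was 2.64 ± 0.232 (adjusted p = 1.9e-13). GDF11, a close relative of myostatin, followed BMP4, with 50.9, 34.0 and 62.9 CPM (-0.58 and then 0.89 on the log2 scale). GDF5, a joint-forming ligand, went the other way with 2.84, 4.04 and 1.09 CPM, and GDF10 fell by 2.12 ± 0.278 in shRRM2/shp16 against shRRM2 (adjusted p = 9.6e-09).

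Among the 17 other secreted antagonists 13 were tested: 4 rose, 3 fell and 6 were not called in shRRM2 against control, and 3 rose, 5 fell and 5 were not called in shRRM2/shp16 against shRRM2. NOG, which encodes noggin, had a course like that of GREM1, with 15.2 ± 0.785 CPM in control, 31.4 ± 1.93 in shRRM2 and 10.9 ± 0.133 in shRRM2/shp16. Its log2 fold changes were 1.05 ± 0.070 in the first step (adjusted p = 3.5e-17) and -1.53 ± 0.074 in the second (adjusted p = 4.1e-22). FSTL3, a follistatin relative that also binds activin, rose by 0.46 and then fell by 1.13, from 90.6 to 125 to 57.0 CPM, opposite to FST in both steps. BMPER, a modulator of BMP binding, and CRIM1, a transmembrane BMP-binding protein, fell by 1.43 and by 1.13 in shRRM2/shp16 against shRRM2. DCN, encoding the TGF-beta-binding proteoglycan decorin, was lower in both hairpin groups (281 and 275 CPM) than in control (460 CPM). FSTL1, a secreted glycoprotein, was at 1493 CPM in control and 1267 in shRRM2 (-0.24 ± 0.024, adjusted p = 1.4e-11), a call lost on the 9 deposited RPKM columns (adjusted p = 0.344).

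Compared per length, as RPKM (CPM divided by the annotated exon length in kilobases), FST was the most abundant of the 10 in each group, at 206 in control, 131 in shRRM2 and 272 in shRRM2/shp16. In control it was followed by ID1 (131), TGFB1 (77.9), INHBA (61.4) and GDF15 (7.1). TGFB2 (3.57), BMP4 (2.98), BMP2 (2.54) and GREM1 (2.44) came next, each overlapping its neighbour, and TGFB3 (1.37) was last. In shRRM2 INHBA (93) stood second, ID1 (61.7) and TGFB1 (57.7) overlapped, GDF15 reached 44.8 and BMP2 9.73, and TGFB2 (6.67), GREM1 (3.22), BMP4 (1.9) and TGFB3 (1.12) followed without overlap. In shRRM2/shp16 INHBA (130) and ID1 (126) overlapped above TGFB1 (69) and GDF15 (40.5), BMP2 (25.8) and TGFB2 (10.1) stood above BMP4 (6.62), and TGFB3 (2.04) and GREM1 (2.02) overlapped at the bottom. The GREM1 values leave out its second identifier, which had 12.7 to 16.4 CPM in control and 10.3 to 11 in shRRM2/shp16, so its ranks could be higher with both. With the exon length of 7532 bases that the deposited RPKM values imply for INHBA, in place of 8302, its values were 67.6, 103 and 143 and its ranks were the same.

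Of the 2 chains of the TGF-beta receptor, TGFBR2 rose in shRRM2 and TGFBR1 in shRRM2/shp16. Of 19 receptors and co-receptors 15 were tested: 7 rose, 5 fell and 3 were not called in shRRM2 against control (median 0.31). In shRRM2/shp16 against shRRM2 6 rose, 6 fell and 3 were not called (median 0.04). Among all genes tested 29% were higher and 31.8% lower in the first comparison, and 31.9% and 29.1% in the second. TGFBR2, the ligand-binding chain, was at 196 ± 5.85 CPM in control, 301 ± 2.495 in shRRM2 and 203 ± 4.43 in shRRM2/shp16, a rise of 0.62 ± 0.030 (adjusted p = 1.3e-21) and a fall back (-0.57 ± 0.030, adjusted p = 1.5e-20). TGFBR1, the signalling chain, was at 156 ± 7.46, 164 ± 3.61 and 373 ± 8.51 CPM. Its rise of 1.19 ± 0.033 came in shRRM2/shp16 against shRRM2 (adjusted p = 2.6e-31). Its 0.07 ± 0.034 in shRRM2 against control had an adjusted p of 0.0791, which fell under the threshold without control b (0.0115) or without shRRM2 c (0.0367). TGFBR3, which encodes betaglycan, was lowest in shRRM2 (30.6, 24.95 and 37.6 CPM), its fall there being lost on the 9 deposited RPKM columns (adjusted p = 0.347), and ENG, the co-receptor endoglin, was highest in shRRM2 (208, 275 and 131 CPM).

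ACVRL1, a type I receptor for BMP9 and BMP10, climbed in both steps (16.5, 28.2 and 44.7 CPM), as did the activin type II receptor ACVR2B (9.39, 12.2 and 28.1 CPM; 1.21 ± 0.076 in the second step, adjusted p = 4.0e-18). The other activin type II receptor, ACVR2A, was at 12.1, 9.57 and 14.1 CPM, lower in shRRM2 than in control by 0.34 ± 0.096 (log2 fold change -0.34, adjusted p = 0.00248; 0.212 on the deposited log2 RPKM). BMPR2, the BMP type II receptor, was at 251, 324 and 277 CPM. The BMP type I receptors ACVR1 and BMPR1A differed by -0.14 and -0.12 between shRRM2 and control. Both calls depended on single libraries: for ACVR1 the adjusted p was 0.0573 without control a and 0.0586 without shRRM2 b, and for BMPR1A, also not called by DESeq2 (0.101), it was 0.135 without control b, 0.0575 without shRRM2 b and 0.0963 without shRRM2 c. RGMB, a BMP co-receptor, fell by 1.18 ± 0.031 in shRRM2/shp16 against shRRM2 (adjusted p = 9.8e-32), to 122 CPM. ENG and ACVRL1 are also expressed by endothelial cells. The 6 endothelial markers summed to 65.4 to 70.6 CPM in control, 68 to 73.1 in shRRM2 and 115 to 124 in shRRM2/shp16, mostly TEK, and CDH5 and CLDN5 were too low to test; their part in the receptor values was not tested.

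**Figure D4:**
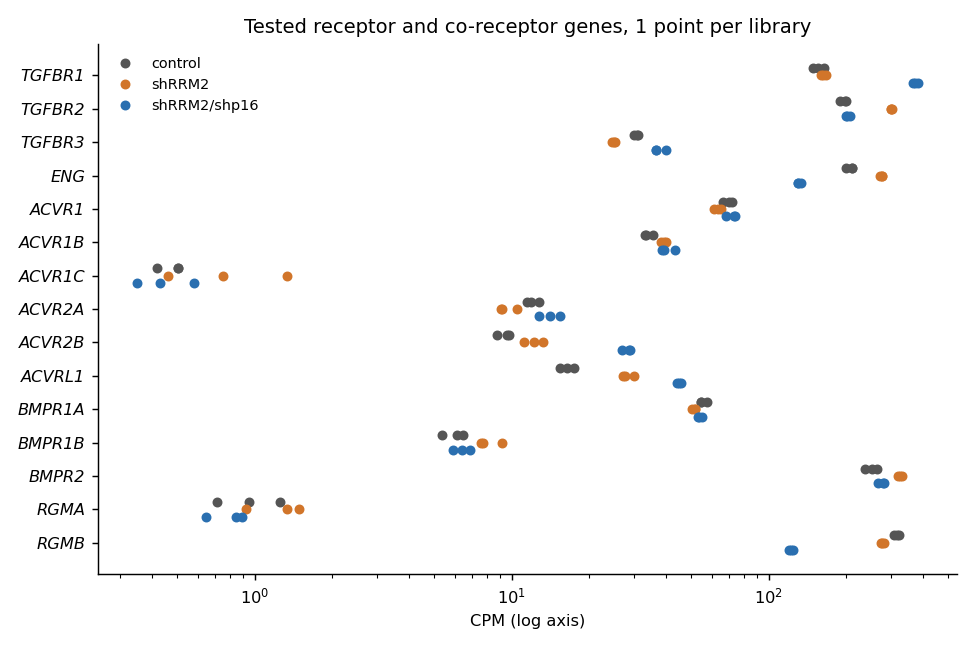
CPM on a log axis of the 15 tested receptor and co-receptor genes; each point is 1 library, coloured by group. TGFBR1, ACVR2B and ACVRL1 were highest in shRRM2/shp16, TGFBR2 and ENG in shRRM2, and RGMB was lowest in shRRM2/shp16.

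TGF-beta is secreted bound to latency proteins and released by integrins, thrombospondin or proteases. Of 18 such genes 17 were tested: 10 rose, 2 fell and 5 were not called in shRRM2 against control (median 0.38, all genes tested 0.00). In shRRM2/shp16 against shRRM2 5 rose, 7 fell and 5 were not called (median -0.04, all genes tested 0.01). The shares of all genes tested were 29% higher and 31.8% lower in the first comparison, and 31.9% and 29.1% in the second. ITGB8, a chain of a TGF-beta-activating integrin, rose by 1.39 ± 0.059 in shRRM2 against control (adjusted p = 6.7e-24), from 16.9 to 44.2 CPM, and stood at 43.0 in shRRM2/shp16. THBS1, which encodes thrombospondin 1, was at 8387, 12080 and 4664 CPM, and LRRC32, a cell-surface anchor of latent TGF-beta, had the same course at 21.1, 33.2 and 14.1 CPM. LTBP1, the main latent TGF-beta binding protein, was at 948, 1239 and 981 CPM. LTBP4, which binds latent TGFB1, went the other way at 68.5, 29.3 and 59.4 CPM (-1.23 ± 0.049 and then 1.02 ± 0.050). PCSK5, a proprotein convertase, rose in both steps (6.10, 8.59 and 21.0 CPM).

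The 16 SMADs and intracellular inhibitors were all tested: 3 rose, 7 fell and 6 were not called in shRRM2 against control (median -0.04). In shRRM2/shp16 against shRRM2 11 rose, 3 fell and 2 were not called (median 0.26). Among all genes tested 29% were higher and 31.8% lower in the first comparison, and 31.9% and 29.1% in the second. SMAD6, which inhibits BMP signalling and is itself a BMP target, fell by 1.12 ± 0.064 in shRRM2 against control (adjusted p = 2.6e-19) and rose by 0.30 ± 0.071 in the second step (adjusted p = 3.5e-04), from 35.0 to 16.1 to 19.7 CPM. SMURF2, a ubiquitin ligase for SMADs and receptors, was highest in shRRM2, at 277, 486 and 243 CPM. TGIF1 and PMEPA1, which restrain SMAD2 and SMAD3, rose by 1.53 ± 0.040 and 1.26 ± 0.045 in shRRM2/shp16 against shRRM2 (adjusted p = 5.6e-32 and 6.5e-27). SMAD1, a BMP signal transducer, rose there by 0.99 ± 0.082 (adjusted p = 4.0e-14), from 10.9 to 21.6 CPM. SMAD7, an inhibitor of both branches, was at 38.8, 34.0 and 52.4 CPM. Its -0.20 in shRRM2 against control was not called without control a (adjusted p = 0.0523) or without shRRM2 c (adjusted p = 0.0502).

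ID1 and 8 of 11 other tested BMP targets were lower in shRRM2 than in control, and ID1 and 10 of the 11 were higher in shRRM2/shp16 than in shRRM2. Of all genes tested, 31.8% were called lower in the first comparison and 31.9% higher in the second. The targets were listed with earlier results of these data known, so their counts are no independent test against these shares. The 8 include SMAD7, whose call was lost without single libraries, and some of the targets are also in the list of SMADs and inhibitors. ID1 (ENSG00000125968, chr20:31605283-31606515, plus strand), whose promoter is printed above, encodes an inhibitor of basic helix-loop-helix factors. It had 167, 162 and 154 CPM in control, 77.0, 82.8 and 68.2 in shRRM2 and 156, 154 and 157 in shRRM2/shp16. All shRRM2 libraries lay far below the rest, and the other 2 groups overlapped. ID1 fell by 1.08 ± 0.043 in shRRM2 against control (adjusted p = 6.6e-25) and rose by 1.03 ± 0.044 in shRRM2/shp16 against shRRM2 (adjusted p = 3.0e-24). The remaining difference from control, -0.05 ± 0.039, was not called (adjusted p = 0.243), which does not show that the levels were equal.

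Of 12 further BMP targets 11 were tested. In shRRM2 against control 8 fell and 3 were not called, median -0.54. From shRRM2 to shRRM2/shp16 10 rose and 1 fell (MSX1), with a median of 0.64. Against control, shRRM2/shp16 had 4 higher, 4 lower and 3 not called, median -0.01. ID3 was at 299, 182 and 332 CPM, falling by 0.72 ± 0.033 (adjusted p = 1.5e-22) and rising by 0.87 ± 0.033 (adjusted p = 7.6e-26), so that it passed the control level. ID2, at 91.5, 46.3 and 71.8 CPM, and ID4, at 18.0, 6.67 and 11.1 CPM, rose in the second step but stayed below control (-0.35 ± 0.042 and -0.70 ± 0.085, adjusted p = 1.3e-09 for both; for ID2 0.159 on RPKM with a pseudocount of 0.1). SMAD9, a BMP signal transducer, fell by 0.54 and rose by 0.54, and HEY1, also a Notch target, fell by 1.36 ± 0.252 (adjusted p = 1.1e-05) and rose by 1.31 ± 0.254 (adjusted p = 2.0e-05) at levels of 1.04 to 2.59 CPM. BMP2 RNA was higher in shRRM2 than in control, while BMP4 was lower.

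**Figure D5:**
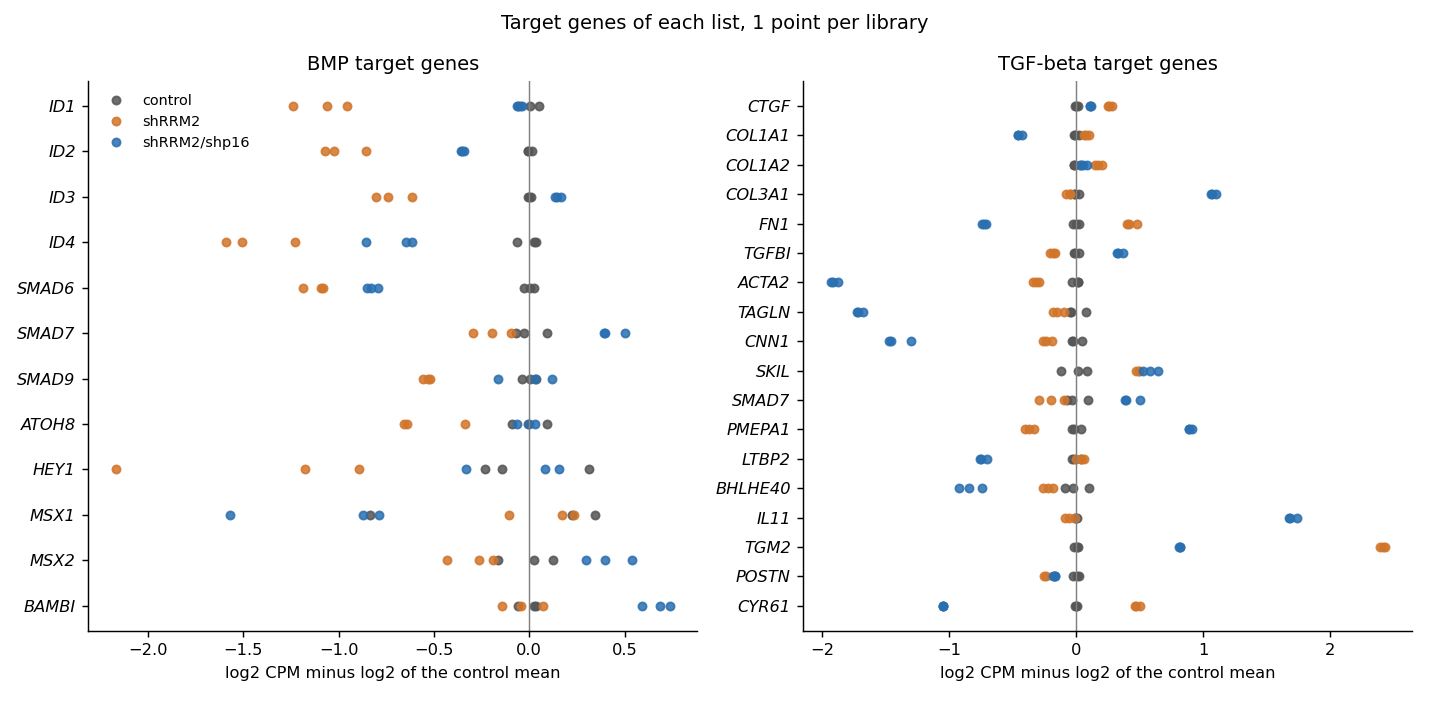
Log2 CPM of the tested BMP targets (left, with ID1) and 18 of the TGF-beta targets (right) in each library, minus the log2 of its control mean (horizontal axis); colours give the group. Most BMP targets lie to the left in shRRM2 and nearer 0 in shRRM2/shp16, while the TGF-beta targets scatter to both sides.

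The 19 TGF-beta targets were all tested. In shRRM2 against control they were divided: 8 rose, 9 fell and 2 were not called (median -0.05). In shRRM2/shp16 against shRRM2 more fell than rose: 6 rose, 12 fell and 1 was not called (median -0.53, all genes tested 0.01). Of all genes tested, 29% were called higher and 31.8% lower in the first comparison, and 31.9% and 29.1% in the second. The contractile genes ACTA2 (819, 657 and 219 CPM) and TAGLN (1039, 944 and 318 CPM) were lowest in shRRM2/shp16, as was CYR61, a matricellular protein also driven by YAP (493, 688 and 239 CPM). CTGF, its relative, was at 1003, 1207 and 1085 CPM. TGM2, a matrix cross-linking transglutaminase, was highest in shRRM2 (147, 781 and 258 CPM; 2.41 ± 0.028 against control, adjusted p = 1.9e-44). IL11, a cytokine of activated fibroblasts, rose by 1.75 ± 0.029 in shRRM2/shp16 against shRRM2 (adjusted p = 1.3e-39), from 214 to 720 CPM, and SKIL, a SMAD repressor, was higher in both hairpin groups (86.5, 121 and 130 CPM). Contractile genes are shared with smooth muscle and pericytes, whose 5 markers summed to 323 to 341 CPM in control, 307 to 331 in shRRM2 and 134 to 148 in shRRM2/shp16, mostly CSPG4. The 4 tested markers were divided. In shRRM2 against control 2 rose and 2 fell, and in shRRM2/shp16 against shRRM2 1 rose and 3 fell. RGS5 rose in both steps (1.73, 7.28 and 12.4 CPM). MYH11 was too low to test, and the part of these markers was not tested.

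Over all 7 lists, counted once each, 92 of 118 genes were tested. In shRRM2 against control 34 rose, 32 fell and 26 were not called (median 0.07), and in shRRM2/shp16 against shRRM2 38 rose, 38 fell and 16 were not called (median 0.00). In shRRM2/shp16 against control 36 rose and 36 fell: of the receptors 7 rose and 2 fell, of the antagonists 3 and 7, of the latency genes 7 and 6, of the SMADs and inhibitors 7 and 5, of the other ligands 4 and 4, and of the TGF-beta targets 9 and 10.

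The genes whose pattern over the 9 libraries lay nearest to each of the 10 were found by the root mean square difference of centred log2 CPM among 11305 genes. For INHBA the nearest was RND3 at 0.028 (Pearson r = 0.999 over 9 libraries that form 3 groups), followed by the proteoglycan gene VCAN at 0.051. For FST it was the kinase gene SGK1 at 0.03, then the transcription factor gene TBX3 at 0.047. GDF15 lay nearest to ICAM1, an adhesion molecule, at 0.112, and to SCG2, a secretogranin, at 0.17. BMP2 lay nearest to FAM65C at 0.21 and HSD17B2 at 0.235, each with a Pearson r of 0.99. The root mean square difference tends to grow with a gene's own range, which was widest for BMP2 (3.51 log2 units). BMP4 was nearest to PDZRN3 at 0.106. ID1 was nearest to TCF12, a helix-loop-helix factor, at 0.091, and to LTBP4 at 0.093. TGFB1 was nearest to MRPS34 (0.028), TGFB2 to C5orf66 (0.071), TGFB3 to FO538757.2 (0.078) and GREM1 to MIER2 (0.054).

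The authors' deposited table compares shRRM2/shp16 with shRRM2 and marks 7 of the 10 genes as significant. In the authors' deposited table the log2 fold changes were 1.44 for BMP2, 1.55 for BMP4, 1.07 for FST, 1.05 for ID1, 0.85 for TGFB2 and 0.44 for INHBA, each with a q-value of 0.000444, and 1.51 for TGFB3 with a q-value of 0.00359. TGFB1 (0.20, q = 0.594), GDF15 (-0.17, q = 0.36) and GREM1 (-0.36, q = 0.061) were not marked in the authors' deposited table. The directions were those of the counts for all 10 genes.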

How the data were processed

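Reads per gene were counted with HTSeq into whole-number counts deposited by the authors, per the file headers and file names; TopHat2 2.0.9, Cufflinks 2.0.2, Cuffdiff and GRCh38 are named in the submitters' processing notes. Annotation and strand setting are not given in the sources used here. RNA was depleted of ribosomal RNA and made into stranded libraries, per the labels' protocols. The authors also deposited log2 RPKM values, which equal log2 of 1 plus the count scaled by exon length and by the counts of the library, and a table of FPKM values, log2 fold changes, p-values and q-values for shRRM2/shp16 against shRRM2. The deposited log2 RPKM column for shRRM2 c does not match its count file: 5.23% of 12596 genes agree within 1%, against 100% for the other 8 columns.

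All 9 libraries were fitted in edgeR 4.0.16 (R 4.3.3; filterByExpr, TMM, quasi-likelihood F test, 6 residual degrees of freedom), with Benjamini-Hochberg adjustment over 16561 genes. Alternatives used DESeq2 1.42.0, limma 3.58.1 on RPKM, other filters and left-out libraries. On counts simulated for shRRM2 against control, edgeR recovered 86.7% of 196 changed genes among 16162, with 11 false calls. In the data 60.9% of genes tested were called in that comparison. The simulation changed far fewer genes, so it cannot show how scaling or error rates behave when most genes change. For genes with several identifiers the one with most counts was kept. Positions come from GENCODE release 29 (GRCh38). The 10 genes and the lists were chosen with earlier results of these data known. Beyond the 10, RRM2, CDKN2A and 19 pathway genes chosen by name, a gene was named if it was among the 3 called genes of largest change in its list and comparison (mean log2 CPM of at least 0) or among the 3 nearest in pattern to one of the 10 (mean log2 CPM of at least 2). Some genes of these lists are counted in them but not reported here by name.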

Additional observations from a re-analysis of the deposited data

How the results depend on the processing

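The number of the 10 genes called was 9 or 10 for shRRM2 against control, 9 or 10 for the step from shRRM2 to shRRM2/shp16 and between 7 and 9 in shRRM2/shp16 against control under every alternative run, main counts being 10, 10 and 9. GDF15 in shRRM2/shp16 against shRRM2 changed sign in limma on the deposited log2 RPKM (0.001, adjusted p = 0.88) and on RPKM with a pseudocount of 0.1 (0.051, adjusted p = 0.785). Both runs used the shRRM2 c column that does not match its counts. When it was left out, the run with a pseudocount of 0.1 kept the sign and the call of the counts. The cause of the change was not tested. The deposited scale, log2 of a small value plus 1, shrinks differences. On the deposited RPKM, which include the column that does not match its counts, the differences of log2 ratio became -1.217 for FST to INHBA in shRRM2 against control and 0.538 from shRRM2 to shRRM2/shp16, -1.798 and -1.824 for GREM1 to BMP2, and 0.728 and -2.16 for GREM1 to BMP4. Without that column, an alternative chosen after seeing the data, these were -1.264, 0.585, -1.602, -2.02, 1.127 and -2.559. Limma on RPKM moved the median over all genes by 0.101 in shRRM2/shp16 against control. Libraries with the same replicate letter showed no shared deviation (correlations of -0.02 to 0.049 over 9 pairs, against -0.048 to 0.036 for different letters). A shared deviation small against the counting noise would be missed, so whether the letters pair the libraries is not settled. With the replicate block, the 10 genes gave 10, 10 and 9 calls, and 10101, 10134 and 10388 genes were called in all. TGFB3, with 84 to 199 counts per library, and BMP4, with 89 to 408, are the genes whose depth limits precision most.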

Other observations

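BMP5, chosen after its values were seen because it lies under the level set for named genes, was at 0.275 ± 0.130 CPM (SD, n = 3) in control, 0.0596 ± 0.0578 in shRRM2 and 4.47 ± 0.278 in shRRM2/shp16. It encodes another BMP of the BMP6 and BMP7 group. Its counts ranged from 0 to 89 per library, too few in shRRM2 for a fold change.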
